A study of Caenorhabditis elegans with 4 samples.

Results

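The X chromosome carried 729 of the 3728 regions (19.6%) at which EGL-27::GFP was enriched over input DNA in fed L1 larvae of Caenorhabditis elegans. They are all the regions that the authors' list places on X, so the choice used a position and no measured value. The other 2999 regions lie on the 5 autosomes. The study compared 2 libraries of DNA recovered with a goat antibody against GFP with 2 libraries of input DNA. The labels number each pair of libraries 1 and 2. In both groups the animals were hermaphrodites of strain OP177, fed L1 larvae raised at 20 °C and treated with 2% formaldehyde. They carry the unc119(ed3) mutation and the transgene wgIs177, which holds egl-27 fused to the tags TY1, EGFP and FLAG together with an unc119 copy, so the input libraries come from transgenic animals too. The transgene was introduced by bombardment, the endogenous egl-27 gene is not named as altered, and the antibody sees the tagged copy of EGL-27.

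EGL-27 is related to the MTA proteins, which belong to nucleosome remodelling and deacetylase complexes, and it has a zinc finger of the GATA type. In this worm the gene is known for its part in embryonic patterning, in the polarity of cells under Wnt control and in survival under stress. The X chromosome differs from the autosomes in ways that make its regions worth a separate account. Hermaphrodites have a pair of X chromosomes and males a single one, and a dosage compensation complex binds X in hermaphrodites and lowers the expression of its genes. Genes used in the germ line are scarce on X, and the contrast between a gene-rich centre and repeat-rich arms, clear on the autosomes, is weaker there.

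Each listed region has a first base, a last base and a q-value, the authors' p-value for ChIP over input corrected for the number of tests. The list joins the replicates, so no error between replicates exists for any value below, and the depth of each library is unknown. Intervals are exact 95% intervals that cover counting error alone and take each region as independent of its neighbours, which it is not. Differences between X and the autosomes were therefore tested with the 6 chromosomes as the units, by a two-sided exact permutation test of X against the 5 autosomes. With a single X this test can give no p-value below 0.167, so no difference between X and the autosomes can pass 0.05 here. It was run on 25 measures, and every Benjamini-Hochberg adjusted p among them was 0.641 or higher. It was also run on the number of regions per protein-coding gene and on the other recomputed settings. Those p-values lie outside the 25 and were not adjusted. X lay outside the range of the 5 autosomes in 12 of the 25. If the 6 chromosomes were alike, each would be the highest in about 1 of 6 measures and the lowest in about 1 of 6. Many of the 25 also overlap, so the count of 12 was not tested and does not set X apart. Positions are in the WS180 build and count from 1. Which genes lie at them was not analysed here.

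The regions were denser on X than on the autosomes as a whole, but not outside the range of single autosomes. X had 41.2 regions per Mb (interval 38.3 to 44.3), and the autosomes had 36.4 per Mb together (35.1 to 37.7), a ratio of 1.13 (1.04 to 1.23). By chromosome the density was 36.7 per Mb on I, 32.6 on II, 48.2 on III, 34.4 on IV and 32.9 on V, so III exceeded X and the other 4 autosomes were below it (exact permutation p = 0.667). The regions covered 217033 bp of X, or 1.23% of the 17683842 bp up to the last listed base. The autosomes ranged from 0.719% on V to 1.21% on III, so on this measure X stood just above all of them (exact permutation p = 0.333). X has 2730 protein-coding genes in the RefSeq annotation of WBcel235, and it held 267 regions per 1000 such genes. The autosomes together held 174 per 1000 genes, with III, at 251, nearest to X, and the ratio of X to the autosomes was 1.54 on that scale (exact permutation p = 0.167).

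Along X the regions formed a low stretch at the left end, a rise before the middle, a dip at the middle and the highest density right of it. Cut into 10 equal parts from left to right, X held 56, 55, 83, 80, 64, 57, 72, 106, 84 and 72 regions. The part with the most regions, the eighth, had 59.9 per Mb, which is 1.45 times the mean of X, and the one with the fewest, the second from the left, had 31.1 per Mb. In parts 5, 6 and 7 the density of X relative to its own mean was 0.878, 0.782 and 0.988, below that of every autosome in the same part, where it ranged from 1.00 to 1.62. In part 8 X was above every autosome, with 1.45 against 0.786 to 1.02. In the other 6 parts X lay within the range of the autosomes. Any 1 of 6 chromosomes would be the highest or lowest in some of the 10 parts, and neighbouring parts are not independent. The parts in which X lay outside the range were picked after the fact and not tested. The low density of X at the left end, with 0.768 and 0.754 of its mean in the outermost parts, was shared with them.

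**Figure D1:**
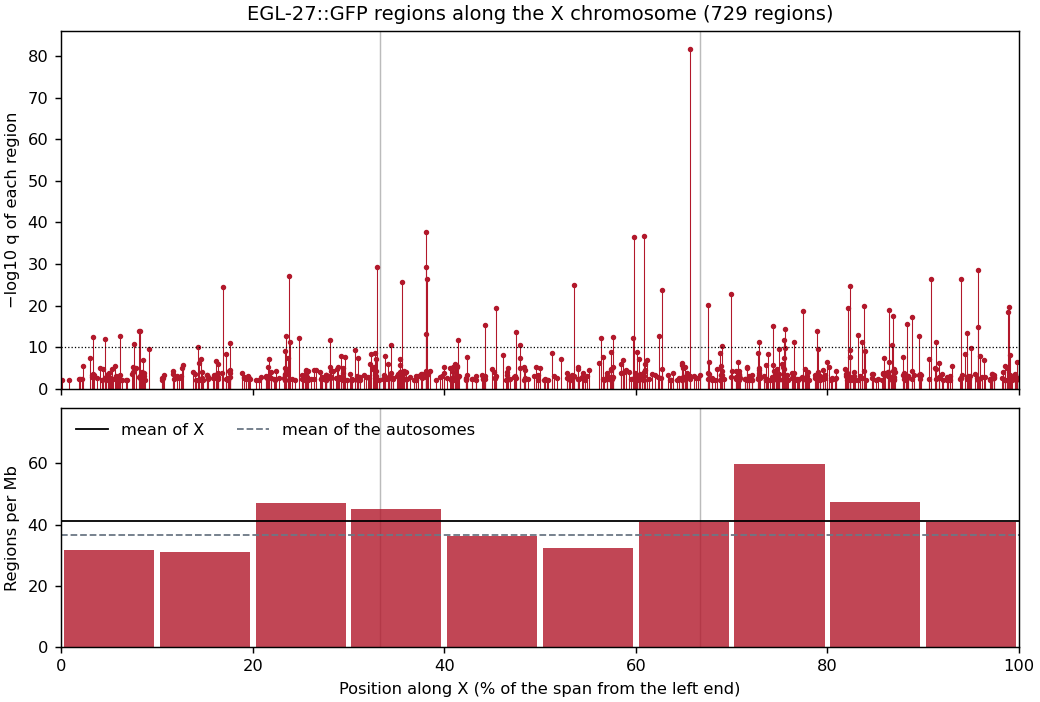
Upper panel: −log10 of the authors' q-value (y axis) of each of the 729 X regions at its place along X (x axis, % of the span); the dotted line marks q = 1e-10. Lower panel: regions per Mb in 10 equal parts of X, with the means of X (41.2) and of the autosomes (36.4) as lines; grey verticals bound the central 33.3%, and part 8 stands highest, at 59.9 per Mb.

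On each autosome the centre held the most regions of the 3 parts, whereas on X the right part did. The left, central and right 33.3% of X held 221, 224 and 284 regions. The centre of X held 30.7% of its regions (interval 27.4% to 34.2%), and the centres of the autosomes held 39.3% together (37.6% to 41.1%). Each autosome had more in its centre than X, from 36.9% on IV to 42.8% on V, a mean of 39.3% ± 2.90 (SD, n = 5 autosomes; exact permutation p = 0.167, the smallest possible). The right part of X held 39.0% (35.4% to 42.6%), against 26.8% on V to 36.1% on II, again outside the range of the autosomes (exact permutation p = 0.167). The left part of X, at 30.3%, lay within theirs, from 21.7% on II to 34.9% on IV (exact permutation p = 1). X was thus the one chromosome of the 6 whose centre held fewer regions than 33.3%. By covered base pairs the centre of X held 32.2%, against 44.8% in the centres of the autosomes.

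**Figure D2:**
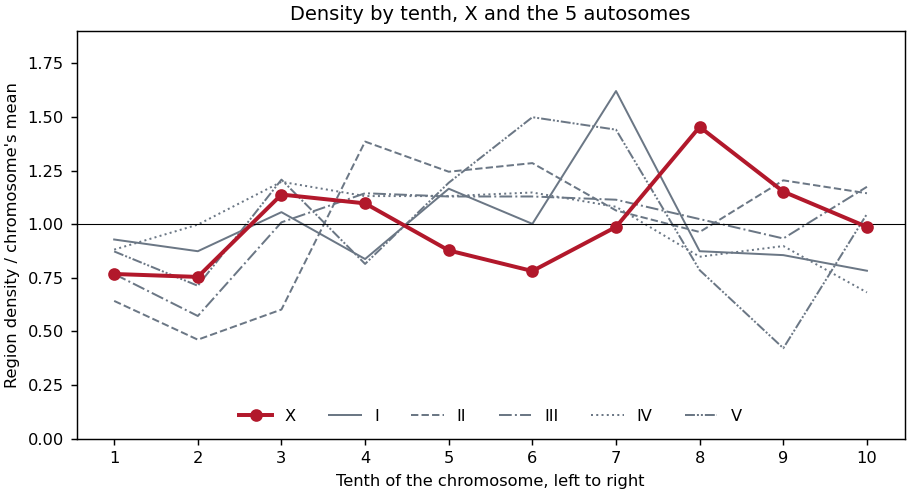
Density of regions in 10 equal parts of each chromosome (x axis, left to right), divided by that chromosome's mean density (y axis), for X in red and for autosomes I to V in grey. X lies below every autosome in parts 5, 6 and 7 and above every autosome in part 8.

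The same profile can be read in windows of 1 Mb, of which X has 17 complete ones. They held 26 to 65 regions, with a median of 39. The fewest, 26 (interval 17.0 to 38.1), lay between 9 and 10 Mb, near the middle of the chromosome, and the most, 65 (50.2 to 82.8), between 13 and 14 Mb. These intervals do not overlap, but the windows were picked as the extremes of 17. A broader rise between 4 and 7 Mb held 52, 48 and 46 regions in its 3 windows, and the first 4 Mb held 27, 33, 35 and 30. The 5 longest gaps between neighbours on X were 171185 to 228803 bp long. Of these, 4 lay within the first 4 Mb, led by X:1627471-1856273 with 228803 bp, and the other was X:9743695-9932115, with 188421 bp, in the window with the fewest regions. Regions in the 3 parts of X differed little in size, with median widths of 242 bp (206 to 269) in the left, 246.5 bp (225 to 276) in the centre and 260.5 bp (225 to 291) in the right part.

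X regions were on the whole wider than autosomal ones. Their median width was 248 bp (interval 235 to 265), with quartiles of 133 and 397 bp and a range of 1 to 2594 bp. The autosomal regions had a median of 210 bp together (202 to 218), and by chromosome 179 bp on V, 207 bp on III, 216 bp on II, 230 bp on IV and 240 bp on I. X was above all 5, but by 8 bp from I, whose median lies inside the interval of X (exact permutation p = 0.333). Regions narrower than 50 bp made up 11.8% on X, 86 in number, and 11.5% on I to 16.9% on V. Those of 1 kb or more numbered 14 on X, or 1.92%, within the autosomal range of 0.666% on IV to 2.21% on II. All 14 had q-values of 6.78e-12 or smaller. The narrow ones were weak, with a median q of 0.00473 and none below 7.07e-05, and 5 of them were a single base pair wide.

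Because width and q-value move together in this list, widths were also set side by side within bands of q. With q of 1e-05 to 1e-04 the median was 355 bp on X (327 to 389, 65 regions) and 300.5 bp on the autosomes (289 to 326, 286 regions). With q of 0.001 to 0.01 it was 153 bp on X (133 to 176, 360 regions) and 134 bp on the autosomes (123 to 145, 1520 regions). Between these bands, with q of 1e-04 to 0.001, it was 249 bp on X and 222 bp on the autosomes. Single autosomes reached 338 bp, 157 bp and 261.5 bp in these 3 bands, so X exceeded each of them only with q of 1e-05 to 1e-04. With q below 1e-20 the median was 824 bp on X (698 to 1170, 18 regions) and 798 bp on the autosomes (706 to 1051, 36 regions). In the remaining bands X had the smaller median. From 1e-10 to 1e-05 the medians were 415 bp on X and 418 bp on the autosomes, and from 1e-20 to 1e-10 they were 597 bp on X and 634 bp on the autosomes.

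The typical q-value did not set X apart, whereas the very small ones were more frequent there. The median q was 9.57e-04 on X and 0.00101 on the autosomes, and on the −log10 scale X, at 3.02, lay within the range of the autosomes, from 2.85 to 3.04 (exact permutation p = 0.833). Below 1e-10 lay 64 X regions, or 8.78% (interval 6.83% to 11.1%), and 159 autosomal regions, or 5.30% (4.53% to 6.17%). The autosomes ranged from 4.49% on IV to 6.48% on III (mean 5.30% ± 0.758, SD, n = 5 autosomes; exact permutation p = 0.167, the smallest possible). Below 1e-20 lay 18 X regions, 2.47%, and 36 autosomal ones, 1.20%, where III reached 2.11% (exact permutation p = 0.333). Seen from the whole list, of which X holds 19.6%, its share was level down to 1e-10 and higher below. X held 19.1% of the regions with q of 0.001 to 0.01, 19.0% from 1e-04 to 0.001, 18.5% from 1e-05 to 1e-04 and 18.6% from 1e-10 to 1e-05. It held 27.2% from 1e-20 to 1e-10 (20.7% to 34.6%) and 33.3% below 1e-20 (21.1% to 47.5%).

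**Figure D3:**
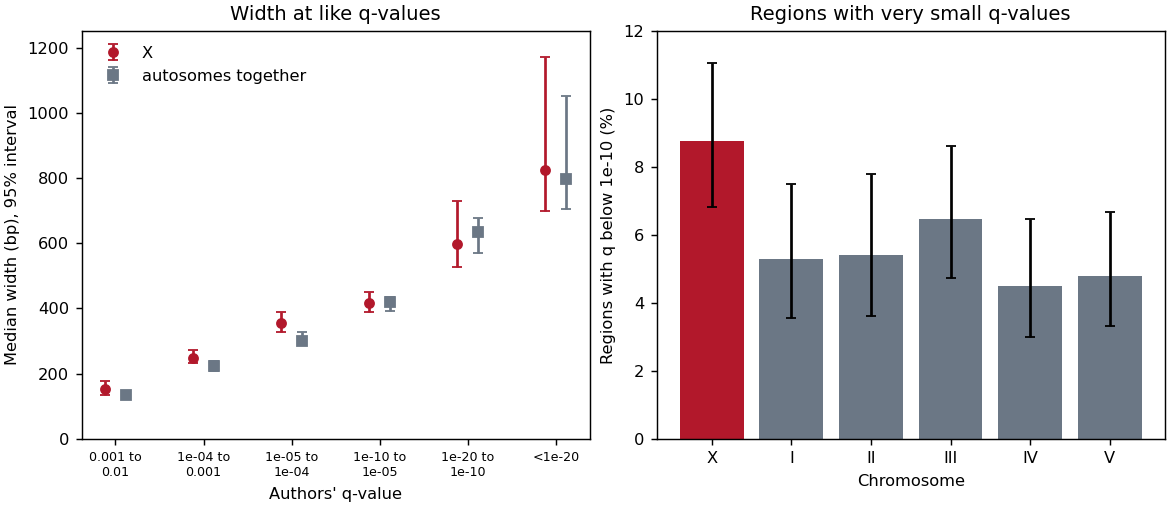
Left: median width in bp (y axis) of X regions (red circles) and of autosomal regions together (grey squares) in 6 bands of the authors' q-value (x axis), with exact 95% intervals of the median. Right: share of regions with q below 1e-10 (y axis, %) on X and on each autosome, with exact 95% binomial intervals; X stands highest at 8.78%, against 4.49% to 6.48% on the autosomes.

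Regions that stood by themselves had very small q-values more often on X than on the autosomes. Neighbours no more than 2 kb apart, end to start, were counted as a stretch, and a region with no such neighbour is called single. Of the 497 single regions on X, 38 had a q below 1e-10, or 7.65% (interval 5.47% to 10.3%), and of the 2028 single autosomal regions 69 did, or 3.40% (2.66% to 4.29%). On X itself, regions below 1e-10 lay in stretches of 2 or more in 40.6% of cases, against 31.8% for all X regions. Among single regions each autosome was lower than X, from 2.03% on II to 4.75% on I (exact permutation p = 0.167, the smallest possible). Within stretches of 3 or more regions the shares were 17 of 118 on X, or 14.4% (8.62% to 22.1%), and 48 of 365 on the autosomes together, or 13.2% (9.86% to 17.1%). Single autosomes ranged widely here, from 2.94% on I (1 of 34) to 21.4% on II (15 of 70), and X lay among them (exact permutation p = 0.667). In stretches of 2 the shares were 9 of 114 on X, or 7.89%, and 42 of 606 on the autosomes, or 6.93%. Whether the difference for single regions is larger than that for stretches was not tested. Single regions were 497 of the 729 on X, so their share overlaps that of all X regions, 8.78%. The split by stretch was not among the planned measures. With gaps of up to 1 kb or 5 kb in place of 2 kb, single regions with q below 1e-10 made up 7.77% and 6.88% on X, against 3.94% and 3.22% on the autosomes.

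The 64 X regions below 1e-10 lay in all parts of the chromosome. They numbered 15 in the left, 20 in the central and 29 in the right 33.3%, and every complete 1 Mb window held 1 to 6 of them. Among the 18 below 1e-20 the order was different, with 3 in the left, 9 in the central and 6 in the right part, an order that was not tested. Widths in this class ran from 584 bp to 2594 bp.

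The 10 X regions with the smallest q-values spanned most of the chromosome. X:11605379-11606501, 1123 bp wide, had q = 1.95e-82, the smallest of the whole list, and it was flanked within 2 kb by a pair of weak regions, with q of 9.96e-04 and 0.00561. X:6740574-6743167, with q = 2.66e-38, was the widest on X, and X:6736215-6738050 (1836 bp, q = 6.79e-30) and X:6749185-6750545 (1361 bp, q = 4.85e-27) lay beside it. X:10765950-10766647 (698 bp, q = 1.64e-37) began a stretch of 4 regions. X:10568355-10569212 (858 bp, q = 3.43e-37) and X:5840846-5841473 (628 bp, q = 5.29e-30) were single, the nearest neighbour of X:5840846-5841473 being 19546 bp away. Right of these lay X:16929266-16930435 (1170 bp, q = 2.18e-29) and X:16612117-16612833 (717 bp, q = 4.93e-27), and to the left lay X:4208575-4209842 (1268 bp, q = 7.60e-28). Of the 10, 5 were single and 5 belonged to stretches of 3 to 6 regions. Among the 100 regions of the whole list with the smallest q-values, 29 were on X and 71 on the autosomes, while X holds 19.6% of the list. These 100 are among the 223 regions with q below 1e-10, so this count is not a separate result.

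Neighbouring X regions were 12940 bp apart in the median (interval 10975 to 14085), measured between midpoints, with quartiles of 3210 and 33246 bp. The autosomal median was 14066 bp together (13115 to 15270), and by chromosome it ran from 11353 bp on III to 16497 bp on IV, so X lay inside the range (exact permutation p = 0.667). The shorter distance went with the higher density. Divided by the mean distance of the same chromosome, the median was 0.533 on X and 0.490 to 0.568 on the autosomes (exact permutation p = 1). Neighbours within 2 kb made up 17.3% of the pairs on X, or 126 of 728, and 15.3% to 20.7% on the autosomes (exact permutation p = 1). The 2 nearest regions on X were separated by 204 bp, and 27 gaps were shorter than 500 bp. Distances over 50 kb made up 13.6% on X, 99 pairs, and 11.2% on III to 20.5% on II.

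**Figure D4:**
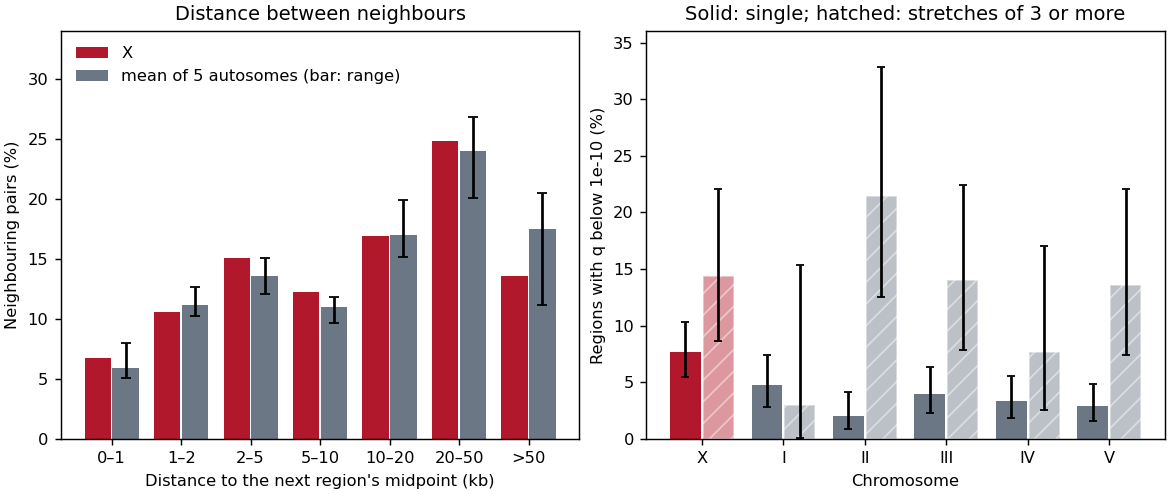
Left: share of neighbouring pairs (y axis, %) by the distance between midpoints in kb (x axis), on X in red and as the mean of the 5 autosomes in grey, whose vertical lines show the lowest and highest autosome; pairs over 50 kb make up 13.6% on X. Right: share of regions with q below 1e-10 (y axis, %) among single regions (solid bars) and among regions in stretches of 3 or more (hatched) on each chromosome, with exact 95% binomial intervals; for single regions X stands highest, at 7.65%.

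At this limit of 2 kb the X regions formed 584 stretches, of which 497 were single, 57 held 2 regions, 15 held 3, 8 held 4 and 7 held 5 or more. Regions in stretches of 2 or more made up 31.8% on X, or 232, and 32.4% on the autosomes (exact permutation p = 1). Larger stretches took a greater share on X, where 118 regions, 16.2% (interval 13.6% to 19.1%), lay in stretches of 3 or more, against 12.2% on the autosomes (11.0% to 13.4%). III, at 15.1%, came nearest and I, at 6.19%, was farthest (exact permutation p = 0.333). With gaps up to 1 kb the exact permutation p was 0.833, and with only regions of q below 0.001 it was 0.667. It was also 0.667 for the better-scored 50% of regions, which is nearly the same list, and stayed at 0.333 in the other settings run. The 7 stretches of 5 or more amount to 3.96 per 10 Mb on X and 1.70 per 10 Mb on the autosomes, with 5.08 on III and 0 on I and on IV. At a fixed limit of 2 kb a denser chromosome can form more stretches. The density was 41.2 regions per Mb on X, 36.4 on the autosomes together and 48.2 on III. The part of density in these differences was not tested. X regions in stretches of 3 or more had a median width of 331.5 bp and a median q of 2.16e-04, and single X regions had 240 bp and 0.00113. The autosomes showed the same order, with 279 bp and 4.13e-04 in such stretches and 199.5 bp and 0.00127 in single regions.

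The 7 large stretches lay in 2 zones of X, at 23.4% to 38.1% and at 72.8% to 82.3% of its span from the left end. These are also zones of higher density, but the regions of the stretches are themselves counted in that density. The largest by number, X:12869968-12878257, held 7 regions of 200 to 428 bp, spaced by gaps of 587 to 1953 bp. None of its q-values was below 1e-10, and the smallest was 2.27e-09. The stretch X:6736215-6745716 was of another make, with 6 regions that covered 5989 of 9502 bp, or 63.0%. It held the widest pair of regions on X and 3 with q below 1e-10, and X:6749185-6750545 followed 3468 bp to its right. In the other 6 large stretches the regions covered 19.6% to 38.1% of the length.

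Of the remaining 5, X:4137876-4145780 held 6 regions, whose q-values ranged from 1.80e-13 to 0.00891, with the widest, of 1211 bp, at its right end. X:14555473-14562884 also held 6, around a region of 1053 bp with q = 2.10e-25. X:5208888-5216004 held 6 weak regions, none with a q below 1.23e-05. X:6248817-6255959 and X:13353463-13360086 held 5 each, with smallest q-values of 5.76e-08 and 5.03e-15. These stretches thus ranged from series of small, weak regions to a few wide, strong ones with weaker regions beside them. None of the 41 regions in the 7 stretches was narrower than 50 bp, while 63 of the 497 single regions were, or 12.7%. The share was 14.9% in X stretches of 2 (17 of 114) and 5.08% in those of 3 or more (6 of 118). On the autosomes it was 5.81% in stretches of 5 or more (5 of 86) and 16.5% in single regions (335 of 2028).

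**Figure D5:**
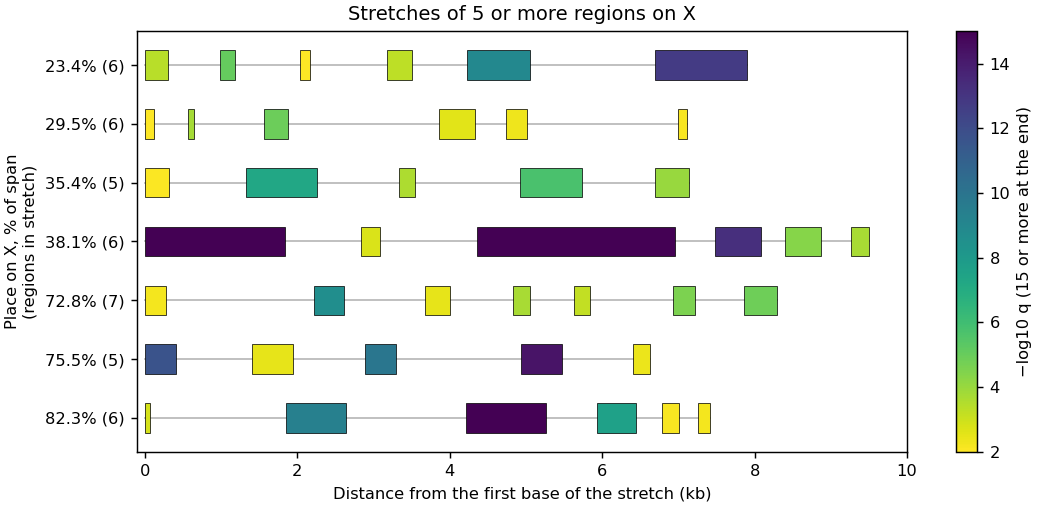
The 7 stretches of 5 or more regions on X, each drawn from its first base (x axis, kb), in order along X from the top, labelled with their place in % of the span and their number of regions. Boxes are regions, coloured by −log10 of the authors' q-value; the stretch at 38.1% is the most covered, at 63.0% of its length.

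Windows of 100 kb were used to look for hot spots. X has 177 such windows, with a median of 4 regions, a highest count of 14 and 11 windows (6.21%) without a region. The autosomes had a median of 3, a highest count of 18 and 2.17% to 12.4% of windows without one. The variance of the counts divided by their mean was 1.80 on X and 1.52 on IV to 2.31 on V (exact permutation p = 0.833), and the densest 10% of windows held 23.6% of the regions on X and 23.0% to 28.2% on the autosomes (exact permutation p = 0.667). X regions were therefore about as uneven at this scale as autosomal ones. Windows with 10 or more regions numbered 7 on X, or 3.95%, and 27 on the autosomes, or 3.27%. The 5 densest on X were X:13300001-13400000 with 14 regions, X:14500001-14600000 and X:15300001-15400000 with 12 each, and X:6200001-6300000 and X:10600001-10700000 with 11 each. The window with 14 regions held the stretch of 5 described above and a stretch of 3 to its left, 2050 bp apart. X:10600001-10700000 was rich in number but not in strength, with 2112 bp covered and no q below 1.77e-09.

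The q-values also give the size of the enrichment, if each is read as a binomial tail, multiplied by how many regions were tested and divided by its place in the list. With 6924 tested regions this reading matched 100% of the 101 most repeated levels, and the next best number matched 0.990%. It gave a single pair of ChIP and scaled input tags for 727 of the 729 X regions. The authors' own tag numbers were not used here, so the following values hold as far as the reading does. On that reading the medians were 47 ChIP tags and 19 input tags per X region, and 41 and 14 per autosomal region. Input tags on the autosomes ran from 12 on V to 16 on I, all below X (exact permutation p = 0.167, the smallest possible). These numbers are not corrected for width, and X regions were the wider in the median. The median ratio of ChIP to input was 2.84 on X (quartiles 2.41 and 3.50), lower than on any autosome, from 2.88 on I to 3.20 on V (exact permutation p = 0.333).

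In the median, X regions thus had more tags and a lower ratio than autosomal ones. These are not separate results, because the list ends at q = 0.01 and regions with more tags reach that limit at lower ratios. X:152887-152893, with 20 over 6 tags, had a ratio of 3.33 and q = 0.00903. X:25396-26232, with 99 over 64 tags, had a ratio of 1.55 and q = 0.00771. The part of this limit in the lower ratios of X was not tested. Regions with q below 1e-10 had a median ratio of 3.75 on X (quartiles 3.38 and 4.24) and 3.93 on the autosomes (3.38 and 4.82), with 159 and 154.5 ChIP tags. Over the whole list, ratios of 5 or more made up 5.50% on X and 8.62% on the autosomes. Among regions of at least 200 bp the median ratio was 2.627 on X and 2.77 on the autosomes together, where I, at 2.625, was below X. In these regions the input density was 71.9 tags per kb on X (quartiles 59.8 and 82.3) and 66.4 on the autosomes (54.8 and 79.1). By autosome it ran from 63.1 on V to 69.8 on I, near X (exact permutation p = 0.333). The part that input density and tag number play in the widths and q-values of X regions was not tested. Within X the right part, densest in regions, had the lowest input density, 68.5 tags per kb, against 74.2 in the centre and 72.2 in the left part.

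The X region with the smallest q-value had both many tags and a high ratio. X:11605379-11606501 had 459 ChIP tags over 47 input tags, giving a ratio of 9.77 (interval 7.22 to 13.5). The next in q, X:6740574-6743167, had nearly as many ChIP tags, 439, but 128 input tags over its 2594 bp, a ratio of 3.43 (2.81 to 4.21). Among the 10 X regions with the smallest q-values, the other 9 had ratios of 3.31 to 5.51. Ratios above 9.77 occurred on X in narrow regions with few tags, such as X:4154151-4154158, with 20 ChIP tags over 1 input tag. The interval of X:11605379-11606501 lies above those of 8 of the other 9 in that group and overlaps that of X:16612117-16612833, at 3.87 to 8.05. However, the region was picked for its q-value, and its ratio was read from that same q-value. Its place above the others is therefore a description and was not tested. These intervals also treat scaled input tags as plain counts.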

How the data were processed

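Regions were taken as the authors deposited them, in a single list of all 4 libraries. Per the file headers the build is WormBase WS180, and the list names PeakSeq, which compares ChIP tags with scaled input tags, as the source of each region. The deposited q-value is the authors' measure of each region. For the aligner, library sizes, input scaling and caller settings, the sources used here give nothing. Members and lists were chosen with earlier results of these data known.

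The last listed base served as the length of a chromosome, and the midpoint as the position of a region. Gene numbers per chromosome came from RefSeq's table for WBcel235, none of whose coordinates were used. Named are the 10 X regions with the smallest q-values, the 5 widest, stretches of 5 or more, the 5 densest windows of 100 kb, the extreme 1 Mb windows and the longest gaps. Tag pairs were read from q-value times list place (relative tolerance 1e-08, sums of 8 to 6000 tags, binomial share 0.5). Computation used Python 3.11.15, numpy 2.4.6, scipy 1.17.1 and pandas 2.3.3, and was tested on simulated lists. Alternatives varied the q threshold, narrow regions, merging, gap, window and denominator.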

Additional observations from a re-analysis of the deposited data

How the results depend on the processing

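Every ratio below sets X over the autosomes together. Of 54 values recomputed over 9 results, 48 kept their direction and 6 changed it. None could pass 0.05, since the exact permutation test over 6 chromosomes cannot. The settings with the better-scored 50% and with q below 0.001 use nearly the same regions, since 1848 of the 3728 had a q below 0.001. They are counted apart in these numbers but are not separate checks. The share of regions in stretches of 2 or more was nearly equal (ratio 0.983) and changed side in 5 of its 6 settings, to 1.16 with the better-scored 50%, 1.18 with q below 0.001, 1.15 and 1.04 with gaps up to 1 kb and 5 kb, and 1.002 with regions within 500 bp merged. The median distance between neighbours (ratio 0.920) changed to 1.02 when divided by the mean distance. The cause of these changes was not tested. The share of regions below 1e-10 had a ratio of 1.66, 1.59 to 1.71 in 3 of its alternatives and 2.06 for the share below 1e-20, but the median of −log10 q gave 1.01. The other results kept their direction in the settings run, with ranges of 1.13 to 1.54 for density, 0.719 to 0.899 for the centre (0.899 with the central 50%, 52.5% on X and 58.4% on the autosomes), 1.13 to 1.19 for width, 1.13 to 1.54 for stretches of 3 or more, 1.02 to 1.16 for neighbours within 2 kb and 0.855 to 0.995 for the variance over the mean of windows. The median over mean distance, the median of −log10 q, the share below 1e-20 and, except for width, the autosomes without their widest stretch on II, of 11 regions, were chosen after seeing the data. No paired analysis was possible because replicates 1 and 2 were combined before regions were called, and no replicate could be left out for that reason. With the depth unknown, no limit can be set for weak regions that were not listed.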
